A study of Mus musculus with 38 samples.

Results

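The retinas described here are those of Crb2 cKO and control mice at postnatal day 10 (P10), when the neural retina holds all its cell types and the photoreceptors are still maturing. All P10 samples were used, with the groups of the sample labels, and they are 8 of the 38 retinas analysed: 4 cKO and 4 control retinas. Control mice were Crb2F/+ Chx10Cre+/- and cKO mice were Crb2F/F Chx10Cre+/-, so that both groups carried the Cre transgene and a floxed allele. The mice had been backcrossed to C57BL/6J and were free of the pde6b and Crb1 rd8 mutations. Total RNA came from entire neural retinas from which the pigment epithelium had been taken off, 1 retina per sample and none pooled. The study describes the cKO retinas as mosaic for recombination by Chx10Cre, with wild type cells beside mutant ones. This would limit them as a model of complete loss. The other 30 retinas, from P0, P3 and P6, are used only where P10 is set against them.

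The Crumbs proteins are transmembrane proteins of the subapical region, just above the adherens junctions that join photoreceptors and Müller glia at the outer limiting membrane. Together with PALS1, PATJ and MUPP1 they form an apical complex that works beside the Par complex in epithelial polarity. Müller glia span the retina, take up glutamate and potassium and answer injury with reactive genes such as Gfap, while microglia are its resident phagocytes.

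Each of the 4 P10 arrays carried 1 control and 1 cKO retina in different dyes. On array 1 the cKO retina was labelled with Cy3, and on arrays 2 to 4 with Cy5. Replicate numbers below are those of the arrays. In the 8 retinas, from 67.4% to 80.2% of features were well above background, with median spot intensities of 172 to 207 in Cy3 and 278 to 359 in Cy5. Array 1 shared its slide with arrays of P6 and arrays 2 to 4 shared another slide, so that slide and dye orientation cannot be told apart within P10. A difference below is the log2 intensity of cKO minus control, estimated by limma within arrays with the array as the pair and dye as covariate, and each comes with its standard error (SE).

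The sample labels, the list of hybridised pairs and the table of dyes place the P10 retinas in the same groups. The study's own list of RNA samples gives each P10 retina the other genotype, and with those groups the sign of every P10 difference below would turn. The differences at P0, P3 and P6 would stay, so comparisons of P10 with these ages would change but not simply turn. The level of Crb2 cannot settle this, because its probe lies 3' of the deleted part, behind the second loxP site. In control retinas 1 to 4 the Crb2 probe measured 12.46, 12.49, 12.30 and 12.51 on the log2 scale, and in the cKO retinas 12.66, 12.38, 12.40 and 12.29. These values overlapped fully, and the difference was 0.02 (SE 0.0946).

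Sex-linked transcripts differed between the groups. Xist, the X inactivation transcript, measured 10.48, 5.39, 5.66 and 5.30 in control retinas 1 to 4 and 11.62, 10.09, 10.47 and 10.14 in the cKO retinas. Eif2s3y, a gene of the Y chromosome, measured 4.06, 11.00, 11.27 and 11.20 in the controls and 4.14, 4.57, 4.12 and 4.12 in the cKO retinas. Thus only control retinas 2 to 4 had the Y-linked pattern, both retinas of array 1 had the Xist pattern, and sex moved with genotype on the other 3 arrays. Of the 7 sex-linked genes, 6 were lower in cKO, with a median of −0.781, and none passed the test. The part of sex in other differences was not tested beyond a covariate of Y-linked intensity, and array 1 gives the difference between retinas of like Xist and Y-linked pattern.

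Genes of tissue next to the neural retina varied between retinas. Rpe65, the isomerase of the visual cycle in the pigment epithelium, measured 10.53, 10.77, 7.45 and 10.27 in control retinas 1 to 4 and 7.89, 8.04, 9.27 and 8.95 in the cKO retinas. Control retina 3 was the lowest of all and the other controls were the highest. The mean of the 16 pigment epithelium genes with a probe (of 17 listed) was 9.201, 9.158, 7.936 and 9.196 in the controls and 7.943, 7.929, 8.757 and 8.698 in the cKO retinas, and its brightest gene was Dct. None of the 16 passed the test, 14 were lower in cKO with a median of −0.439, and 5 of them (Rpe65, Rgr, Rdh5, Lrat and Stra6) had an unadjusted p below 0.05. Over all probes, 51.9% were lower, and 2.82% lower at that p. The array medians of the list were −1.38, −1.19, 0.846 and −0.353. Its median was −0.886 without array 3, −0.263 without array 2 and −0.0741 without array 1. Of the 24 genes of lens and anterior eye, 17 were higher in cKO and none had an unadjusted p below 0.05. Their brightest gene was Cryaa, and their mean was 7.834, 6.789, 7.862 and 7.107 in the controls and 7.481, 6.75, 7.021 and 8.717 in the cKO retinas, so that cKO retina 4 stood above the rest. The lens median was 0.124 in the fit, 0.566 without array 1, 0.382 without array 3, −0.217 without array 4, −0.113 after loess normalization and 0.531 with the Y-linked covariate. All 8 erythroid genes were higher in cKO, with a median of 0.142 (0.26 without array 1, 0.0922 without array 4) and Car1 alone below an unadjusted p of 0.05 (0.10, SE 0.0454; −0.08 with a dimmer probe), and the brightest was Hba-a1. The part of pigment epithelium, lens and blood in the other results was not tested.

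**Figure D1:**
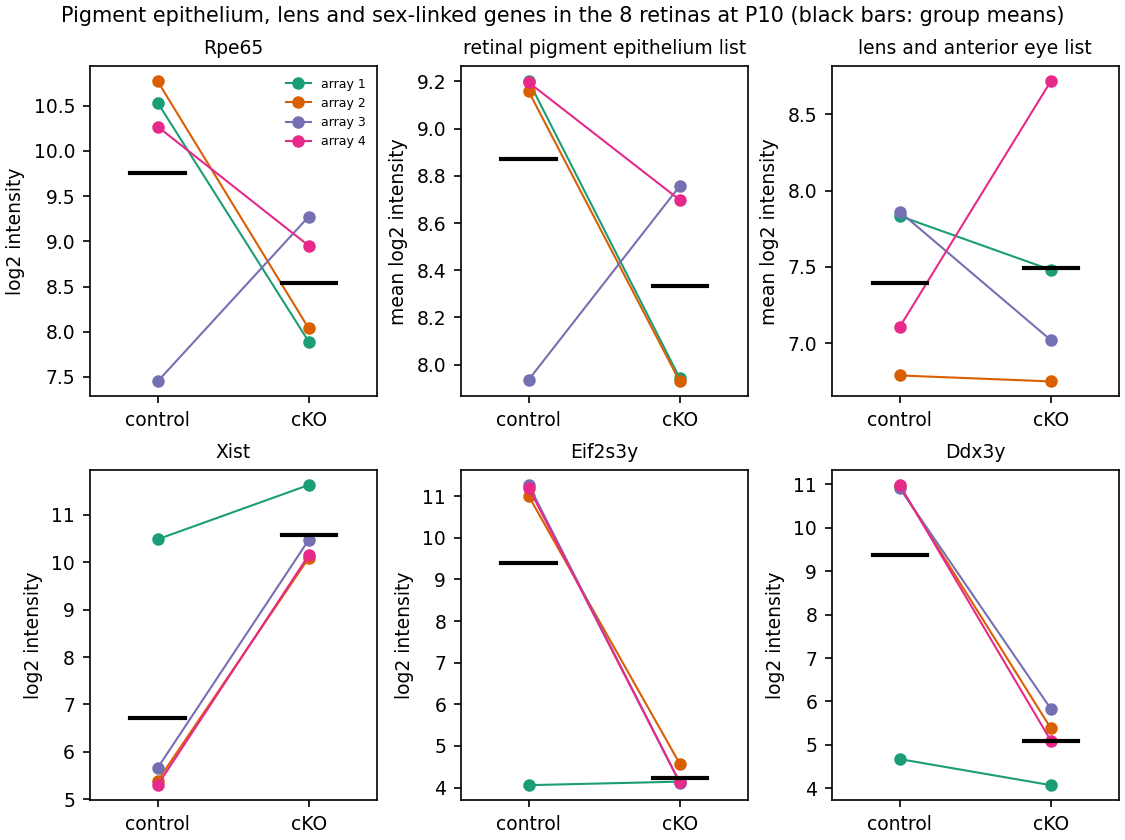
Log2 intensity of Rpe65, Xist, Eif2s3y and Ddx3y, and the mean log2 intensity of the pigment epithelium and lens lists, in the 4 control and 4 cKO retinas at P10. Lines join the retinas of an array and black bars are group means. Control retina 3 lies below the other controls in the pigment epithelium panels, and both retinas of array 1 are high in Xist.

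No probe passed the test at P10. In limma, 0 of 39283 probes (0%) had a Benjamini-Hochberg adjusted p below 0.05, and the lowest was 0.238. At an unadjusted p below 0.05 there were 1992 probes (5.07%), of which 883 were higher in cKO (2.25% of probes) and 1109 lower (2.82%). At any p, 48.1% of probes were higher and 51.9% lower, and the list counts can be read against these shares. The median difference over all probes was −0.00461 and the median absolute difference 0.0683, and 85 probes differed by more than 1, of which 5 were well above background in all 8 retinas. Among the 25125 probes well above background in all 8 retinas, 436 (1.74%) were higher and 749 (2.98%) lower at an unadjusted p below 0.05. In 353 of these probes (1.4%) all 4 cKO retinas lay below all 4 controls, and in 96 (0.382%) they lay above. The count of 0 changed most without array 3, when 21 probes passed, 4 higher and 17 lower, among them Spp1, Rpe65, Lrat and Rdh5. Control retina 3, on that array, stood apart from the other controls in Rpe65, Lrat and Rdh5. In Spp1 it lay among the cKO retinas. Leaving array 3 out takes away the values that went against the others, so the p of these genes then is no independent support. Without array 4, 1 probe passed, 4832428D23Rik, and without array 1 or 2 none did. Other fits of the same values called up to 4 probes. Group means without pairing called Spp1 with or without dye, and the array as a random block called 4 probes, among them Spp1, Glul and Rab37. The methods' t-test called 0, with 959 probes below an unadjusted p of 0.05. That count ranged from 595 with group means and dye to 4050 with processed signals and 5246 with only the P10 arrays.

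The P10 difference was also set against the mean difference at P0, P3 and P6, which come from other retinas. No probe passed (0% of 39283), 1350 (3.44%) lay below an unadjusted p of 0.05, and the lowest adjusted p in limma was 0.733. Without array 3, 14 probes passed, among them Spp1, Rpe65, Lrat and Rdh5. Spp1 also passed in this contrast when arrays were a random block, and when group means were compared without dye.

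Müller glia genes were mostly lower in cKO retinas, though none passed the test. Of the 22 genes of the Müller list, all well above background in every retina, 19 were lower and 3 higher in cKO. The median difference was −0.125, against −0.00461 over all probes, and 8 genes (Aqp4, Glul, Abca8a, Clu, Kcnj10, Dkk3, Vim and Prdx6) were lower with an unadjusted p below 0.05. Among all probes well above background, 53.5% were lower, 2.98% lower at that p and 1.4% lower without overlap of the groups. The list's medians on arrays 1 to 4 were −0.24, −0.157, −0.0288 and −0.104. At P0, P3 and P6 the list's median was −0.0231, −0.0813 and −0.0111. Without array 1, on the slide that holds arrays 2 to 4, the median was −0.0493. Fewer cells of a type and less RNA per cell cannot be told apart in whole retinas, here or for the groups below.

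Glul encodes glutamine synthetase, which turns the glutamate taken up by Müller glia into glutamine. It measured 14.35, 14.14, 14.36 and 14.29 in control retinas 1 to 4 and 14.09, 13.87, 13.75 and 13.72 in the cKO retinas. All cKO retinas lay below all controls, with a difference of −0.42 (SE 0.0711, lower on 4 of 4 arrays, adjusted p = 0.238 in limma). Aqp4, the water channel of the glial endfeet, measured 10.04, 9.90, 10.08 and 10.16 in the controls and 9.61, 9.65, 9.62 and 9.73 in the cKO retinas, again without overlap. Its difference was −0.47 (SE 0.0729, lower on 4 of 4 arrays, adjusted p = 0.238 in limma), and a dimmer Aqp4 probe gave −0.24. Abca8a, an ABC transporter, did not overlap either, at 8.67, 8.65, 8.56 and 8.72 in the controls and 8.44, 8.31, 8.10 and 8.24 in the cKO retinas (−0.40, SE 0.0783). Clu, the secreted chaperone clusterin, was at 15.17 to 15.44 in the controls and 14.67 to 14.94 in the cKO retinas (−0.40, SE 0.102). With a normexp offset of 50, Aqp4 and Abca8a passed the test, at adjusted p of 0.00968 and 0.0163 in limma, and the range of p over all settings reached 1 for both. Glul passed only with the array as a random block, at an adjusted p of 0.00215.

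Other Müller genes were less uniform. Kcnj10, the inward rectifier that carries potassium out of the retina, was lower on 4 of 4 arrays (−0.32, SE 0.0949), with controls at 11.17 to 11.50 and cKO retinas at 10.79 to 11.26. Vim, a filament of glia, had a difference of −0.18 (SE 0.0737, lower on 3 of 4 arrays, and −0.117 without array 4). Dkk3 had a fitted difference of −0.24 (SE 0.0951) although cKO was higher on 3 of 4 arrays. On the remaining array cKO retina 1 stood apart at 14.94, against 15.32 to 15.38 in the others. The Dkk3 difference was −0.247 without array 1 and −0.0788 with group means without dye. The glial transcription factor Sox9 differed by −0.14 (SE 0.12, and −0.0241 without array 1) and the retinaldehyde carrier Rlbp1 by −0.07 (SE 0.115). The values of both overlapped between the groups. The highest difference of the list was that of Hes5, a Notch target, at 0.179, and its brightest gene was Dbi.

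**Figure D2:**
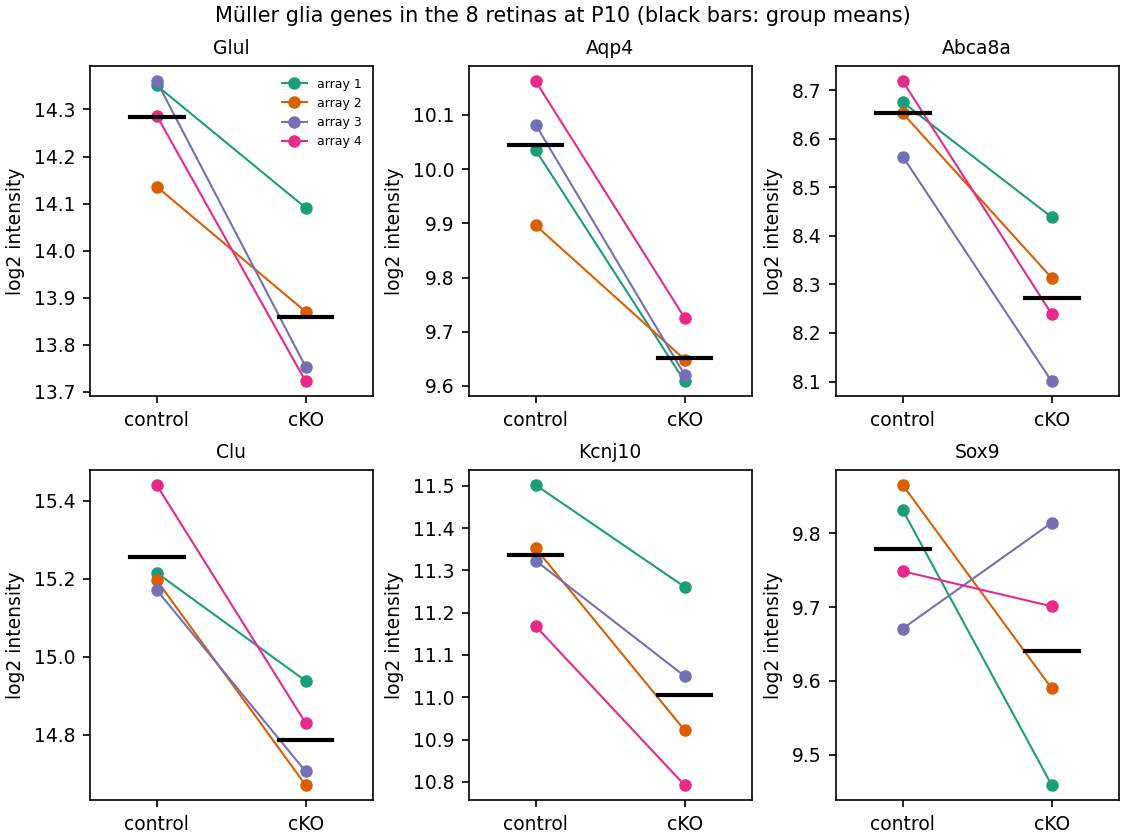
Log2 intensity of 6 Müller glia genes in the 4 control and 4 cKO retinas at P10. Lines join the retinas of an array and black bars are group means. Glul, Aqp4, Abca8a and Clu have all cKO retinas below all controls, Kcnj10 is lower on each array with overlapping groups, and Sox9 overlaps.

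The promoters of 3 of these genes, which were low together, are shown with that of Spp1. In the fit over all arrays Spp1 had the largest difference of the genes named below. They are from RefSeq on GRCm38.p6, from 250 bases before to 50 after the start, 5' to 3' on the gene's strand. Capitals mark CCAAT, the box bound by NF-Y, and ACAAT, the core of SOX sites, each on either strand. A match was found for CCAAT (or ATTGG) in 37.4% and for ACAAT (or ATTGT) in 31% of the 32851 promoters of this length. The windows are chr1:153899679-153899978 (+) for Glul, chr1:172340960-172341259 (+) for Kcnj10, chr11:110095888-110096187 (-) for Abca8a and chr5:104434861-104435160 (+) for Spp1, the more upstream of its 2 listed starts.
Glul: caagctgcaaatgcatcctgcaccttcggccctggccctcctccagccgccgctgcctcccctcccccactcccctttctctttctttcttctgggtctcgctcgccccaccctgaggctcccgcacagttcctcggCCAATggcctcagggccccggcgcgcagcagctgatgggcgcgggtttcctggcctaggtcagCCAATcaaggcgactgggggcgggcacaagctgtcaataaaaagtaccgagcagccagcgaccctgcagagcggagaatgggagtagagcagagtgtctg
Kcnj10: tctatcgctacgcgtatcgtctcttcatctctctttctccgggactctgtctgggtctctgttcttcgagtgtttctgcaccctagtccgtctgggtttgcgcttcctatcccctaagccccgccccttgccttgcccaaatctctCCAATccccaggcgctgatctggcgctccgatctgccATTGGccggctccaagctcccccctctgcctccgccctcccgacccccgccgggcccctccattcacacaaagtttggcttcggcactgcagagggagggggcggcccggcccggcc
Abca8a: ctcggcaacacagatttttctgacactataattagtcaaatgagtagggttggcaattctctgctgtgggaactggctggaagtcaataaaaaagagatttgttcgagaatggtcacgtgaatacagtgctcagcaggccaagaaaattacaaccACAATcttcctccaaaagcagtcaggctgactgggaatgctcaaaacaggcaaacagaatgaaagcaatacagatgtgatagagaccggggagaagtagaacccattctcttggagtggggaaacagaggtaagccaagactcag
Spp1: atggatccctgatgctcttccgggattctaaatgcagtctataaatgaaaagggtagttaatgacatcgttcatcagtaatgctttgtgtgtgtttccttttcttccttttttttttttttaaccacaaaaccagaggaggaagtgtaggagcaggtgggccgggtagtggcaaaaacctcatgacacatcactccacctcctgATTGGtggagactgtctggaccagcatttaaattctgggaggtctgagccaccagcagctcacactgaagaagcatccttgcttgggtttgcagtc
Glul and Kcnj10 each hold 2 CCAAT matches and Spp1 holds 1, while Abca8a holds 1 ACAAT match. Of the 22 Müller genes, 14 had a promoter in the table.

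Rod genes were lower on 3 of the 4 arrays and none passed the test. Of the 30 genes of rod phototransduction and the outer segment, 27 were lower and 3 higher in cKO, with a median of −0.14 and array medians of −0.123, 0.028, −0.133 and −0.146. In the fit with the Y-linked covariate the rod median was −0.233, and after loess it was −0.0772. At P0, P3 and P6 the median was 0.0318, −0.0397 and 0.0106. An unadjusted p below 0.05 was found for 4, all lower: Gnat1, Slc24a1, Pde6g and Guca1b. Among all probes well above background, 53.5% were lower, and 2.98% lower at that p. Gnat1, the rod transducin, measured 16.18, 14.95, 16.07 and 15.59 in the controls and 16.05, 15.10, 15.13 and 14.80 in the cKO retinas. Arrays 3 and 4 carried most of its difference (−0.44, SE 0.182), which was −0.271 without array 3. Pde6g, the inhibitory subunit of the rod phosphodiesterase, did not overlap, with controls at 17.37 to 17.61 and cKO retinas at 17.14 to 17.26 (−0.30, SE 0.13), and its difference was −0.111 after loess and −0.193 with the scanner's processed signals. The exchanger Slc24a1 (−0.40, SE 0.173) was lower on 4 of 4 arrays and at −0.632 without array 1. Rom1, the brightest gene of the list, was not among the genes with an unadjusted p below 0.05, and neither was Nrl, the factor that sets rod fate (−0.09, SE 0.136).

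Cone genes were also mostly lower. Of 16, 12 were lower and 4 higher, with a median of −0.0885 and array medians of −0.0463, −0.137, −0.107 and −0.151, and 2 had an unadjusted p below 0.05. The shares over all probes well above background were 53.5% lower, and 2.98% lower at that p. Opn1mw, the middle-wave cone opsin, measured 12.55, 12.25, 11.89 and 12.31 in the controls and 12.09, 11.87, 11.77 and 11.50 in the cKO retinas. It was lower on each array with a slight overlap (−0.42, SE 0.0856, adjusted p = 0.405 in limma), and it passed without array 3, at an adjusted p of 0.0199. Gnat2, the cone transducin, did not overlap (−0.20, SE 0.0923). The cone arrestin Arr3 was at 0.08 (SE 0.209), with 3 of 4 arrays higher, and it was −0.0928 without array 1. Opn1sw, the short-wave opsin, differed by −0.07 (SE 0.132), and the brightest gene was Gngt2.

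Factors shared by maturing photoreceptors did not move one way. Of the 15 precursor genes, 9 were higher and 6 lower, with a median of 0.0257 that became −0.0157, 0.00981, 0.00117 and 0.0643 without arrays 1 to 4, and only Unc119 (−0.27, SE 0.0939) had an unadjusted p below 0.05. Crx differed by 0.03 (SE 0.107) and Otx2, the brightest of the list, by −0.04 (SE 0.144). Crb1, the other large Crumbs gene of the retina, differed by 0.48, 0.06, −0.13 and −0.15 on arrays 1 to 4 with 1 probe (0.12, SE 0.118). Its brighter probe read −0.1097 in both retinas of array 4, far below the 9.28 to 9.70 of the other arrays, and gave −0.08 (SE 0.0884), 2.67 after loess and 0.0428 when saturated and non-uniform features were kept, so that its sign and size turned with the processing. The dimmer Crb1 probe was put first after these values had been seen.

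Genes of the inner retinal neurons differed between lists and arrays. Of 18 bipolar genes 14 were lower, with a median of −0.128 and array medians of 0.0239, −0.223, −0.136 and −0.193. The bipolar median was −0.0763 after loess and −0.0784 with only the P10 arrays. Gng13, a subunit of the G protein downstream of the ON bipolar glutamate receptor, measured 13.94, 13.58, 13.75 and 14.08 in the controls and 13.54, 13.31, 13.35 and 13.47 in the cKO retinas. It did not overlap (−0.44, SE 0.125, adjusted p = 0.769 in limma), and Car8 did not either (−0.30, SE 0.0996). The highest of the list was Cabp5, at 0.361 and at −0.09 with a dimmer probe. Of 20 horizontal and amacrine genes (of 23 listed, since Tfap2a, Tfap2b and Tfap2c have no probe under these names), 16 were lower, with a median of −0.0598 and Slc32a1 as the brightest. Calb1 (−0.29, SE 0.0833) and Vip (−0.30, SE 0.117) were lower on 4 of 4 arrays at an unadjusted p below 0.05. Of 17 ganglion cell genes 14 were lower, with a median of −0.0464 in the fit and of −0.00347 without array 1. Its array medians were −0.124, 0.0344, 0.00221 and 0.0116, none had an unadjusted p below 0.05, and the brightest was Nefl.

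Microglial genes were higher on 3 of 4 arrays and lower on array 3. Of 33 genes, 24 were higher and 9 lower in cKO, none passed the test, and 4 (Emr1, Fcer1g, Cd68 and Siglech) were higher with an unadjusted p below 0.05. Over all probes, 48.1% were higher, and 2.25% higher at that p. The list's median was 0.0621, against 0.0414, −0.212 and −0.0728 at P0, P3 and P6. Its P10 array medians were 0.128, 0.218, −0.173 and 0.177. Without array 3 the median was 0.141, without array 2 it was 0.0297, and with the Y-linked covariate 0.0183. The mean log2 intensity of the list was 8.953, 8.993, 9.258 and 9.04 in the controls and 9.136, 9.202, 9.139 and 9.113 in the cKO retinas. Control retina 3 was thus above every cKO retina and the other controls below every one. The Fc receptor chain Fcer1g had the same order, at 9.57, 9.77, 10.43 and 9.83 in the controls and 10.19, 10.25, 10.11 and 10.17 in the cKO retinas (0.33, SE 0.125, and 0.505 without array 3). Aif1, which encodes IBA1, measured 10.17 in control retina 3 and 9.56 to 9.65 in the others, against 9.56 to 9.89 in the cKO retinas (0.00, SE 0.17). Ptprc, encoding CD45, was dim, though well above background in at least 19 of all 38 retinas. It differed by 0.02 (SE 0.103), with 0.114 without array 2 and −0.0597 without array 4. Itgam, encoding CD11b, gave 0.36 (SE 0.316, 0.569 without array 2 and 0.184 without array 3) with its brightest probe and 0.05 and 0.12 with the others. Siglech, the brightest of the list, gave 0.63 (SE 0.296, and 0.392 without array 1) with its brighter probe and −0.14 with the other. P2ry12, a receptor of resting microglia, was the lowest of the list at −0.19 (SE 0.112), with all cKO retinas below all controls.

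Spp1 encodes the secreted protein osteopontin. In the fit over all arrays it had the largest difference of all genes named here apart from the sex-linked ones. It measured 8.17, 8.63, 9.66 and 7.77 in control retinas 1 to 4 and 10.18, 10.50, 9.47 and 10.11 in the cKO retinas. All cKO retinas lay above 3 controls, and control retina 3 lay among them. The difference was 1.52 (SE 0.287, higher on 3 of 4 arrays, adjusted p = 0.355 in limma). A two-sided exact permutation test over the 8 retinas, which leaves their pairing by array out of account, gave p = 0.0571, where 0.0286 is the smallest possible. Spp1 was chosen with earlier results of these data known, and this p is not adjusted for that choice. Without array 3 the Spp1 difference was 2.06, beside −2.25 for Rpe65, and it passed the test with an adjusted p of 8.79e-05 in limma. Array 3 was the array on which Spp1 was lower in cKO, so that p is no independent support. Over all settings the adjusted p of Spp1 reached 0.979. It passed too with group means in place of pairs. Against the mean of P0 to P6 the Spp1 difference was 1.68 (adjusted p = 0.733 in limma), and that contrast passed without array 3 (adjusted p 0.000139 in limma), with arrays as a random block (0.00784) and for group means without dye (0.0221). Spp1 is made by activated microglia but also by some retinal neurons, and whole retinas do not show which cells it came from.

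Other genes of activated microglia differed less. Of 31 genes, 20 were higher and 11 lower. Their median was 0.0534 (0.0227, −0.0975 and −0.0599 at P0, P3 and P6), with P10 array medians of −0.0112, 0.13, −0.145 and 0.132. Without 1 array the median went from 0.0148 (array 2 left out) and 0.0225 (array 4) to 0.0885 (array 1) and 0.0912 (array 3). Higher with an unadjusted p below 0.05 were Spp1, Itgax, Ccl3 and Fabp5, and lower were Cxcl10 and Igf1. Itgax, the integrin CD11c, measured 7.00, 7.38, 7.98 and 6.69 in the controls and 8.01, 8.13, 7.81 and 7.53 in the cKO retinas (0.66, SE 0.186, adjusted p = 0.769 in limma). The chemokine Ccl3 measured 6.58, 6.37, 7.44 and 6.39 in the controls and 6.91, 7.40, 7.29 and 7.30 in the cKO retinas (0.53, SE 0.213). In both, as in Spp1, control retina 3 was the highest control and reached the cKO range. Fabp5, the brightest of the list, was higher on 4 of 4 arrays (0.16, SE 0.0628). Of 5 probes for Igf1 the brightest gave −0.19 (SE 0.0691), while 3 of the others were slightly above 0.

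**Figure D3:**
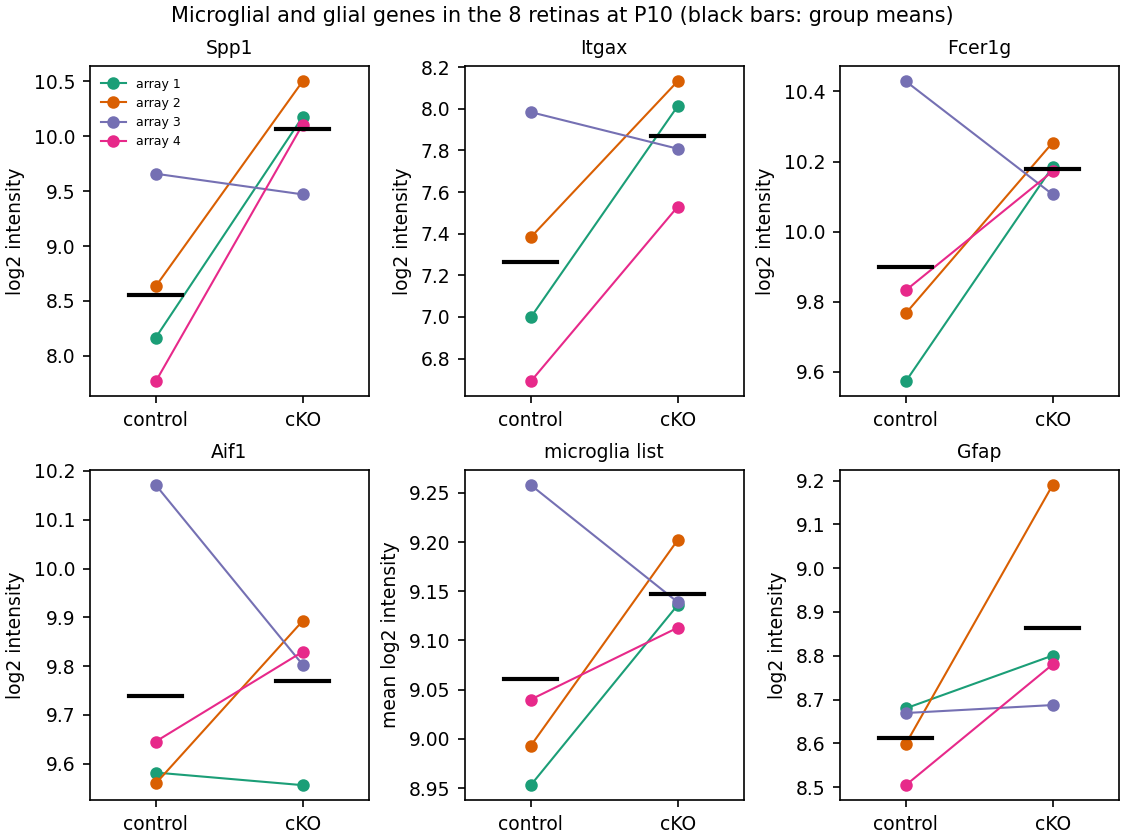
Log2 intensity of Spp1, Itgax, Fcer1g, Aif1 and Gfap, and the mean log2 intensity of the 33 microglial genes, in the 4 control and 4 cKO retinas at P10. Lines join the retinas of an array and black bars are group means. Control retina 3 is the highest control in Spp1, Itgax, Fcer1g, Aif1 and the list mean.

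Reactive glia genes showed no common direction. Of 27 genes with a probe (of 28, Serpina3n having none), 10 were higher and 17 lower, with a median of −0.0362 (−0.0653 without array 1, −0.00746 without array 3). Gfap, the filament of reactive Müller glia and astrocytes, measured 8.68, 8.60, 8.67 and 8.50 in the controls and 8.80, 9.19, 8.69 and 8.78 in the cKO retinas. All cKO retinas were above all controls, though cKO retina 3 and control retina 1 were nearly equal. The difference of 0.31 was within its SE of 0.523, which draws on the spread at all ages. It was 0.181 without array 2 and 0.103 with the Y-linked covariate. The other Gfap probe that was well above background in all retinas gave 0.24 with overlap. Cntf, a factor for photoreceptor survival, was lower without overlap (−0.26, SE 0.0797), while Cxcl10 was well above background in 1 control and in no cKO retina. Cp was the brightest gene of this list. Of 8 astrocyte genes 4 were higher and 4 lower, with a median of −0.0201 that became 0.0386 without array 1, and the brightest was Igfbp2.

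Complement, antigen presentation and interferon-induced genes serve innate immunity. Of 29 such genes (of 30, Ifi27 having no probe), 18 were lower and 11 higher and none passed the test. The median was −0.0804, with array medians of −0.166, 0.118, −0.0915 and −0.184, and it was −0.0254 after loess and −0.0198 among probes well above background. The interferon-induced Usp18, Ifit3 and Oasl2 and the complement factor Cfi were lower with an unadjusted p below 0.05, and Cfi was at −0.152 without array 1 (−0.31 with it). Ifit3 measured 7.97, 7.64, 7.52 and 8.89 in the controls and 7.41, 7.31, 7.22 and 7.68 in the cKO retinas (−0.47, SE 0.14). Usp18, a brake on interferon signalling, measured 6.94, 6.74, 6.33 and 7.52 in the controls and 6.56, 6.53, 5.84 and 5.99 in the cKO retinas (−0.59, SE 0.193). Each was lower on 4 of 4 arrays, control retina 4 was the highest of all, and 1 cKO retina was not well above background in Usp18. Without array 4 the differences were −0.317 for Ifit3 (−0.300 without array 1), −0.324 for Usp18 and −0.228 for Oasl2, and the list's median was −0.0306 (−0.042 without array 3). B2m, the brightest gene of the list, differed by 0.01 (SE 0.104).

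Genes of cellular stress are induced when proteins misfold or oxidants build up. Of the 26 genes of the unfolded protein response 22 were lower, against 51.9% of all probes, and none had an unadjusted p below 0.05. Their median was −0.0566 (0.0164 without array 1, −0.101 without array 3), with array medians of −0.203, 0.0309, 0.0699 and −0.106. The chaperone Hspa5 differed by −0.09 (SE 0.0964) and the stress factor Ddit3 by −0.03 (SE 0.0946), and the brightest gene was Atf4. Of 13 heat shock genes (of 14, Hspa1b having no probe) 9 were lower, with a median of −0.0374 that became 0.0129 without array 1 and −0.0725 without array 2. Bag3 (−0.18, SE 0.0782) and Hsp90aa1 (−0.17, SE 0.0469) were lower on 4 of 4 arrays, and Hspa8 was the brightest. Of 23 oxidative stress genes 11 were higher and 12 lower, with a median of −0.00271 (0.0579, −0.0273, 0.0134 and −0.012 without arrays 1 to 4). Nqo1, a quinone reductase, was lower on 4 of 4 arrays (−0.31, SE 0.144; −0.15 without array 1), Hmox1 was the highest (0.32, SE 0.258) and Gpx4 the brightest.

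Of 29 genes of apoptosis and the p53 response, 19 were higher and 10 lower, with a median of 0.0373 and array medians of −0.0865, 0.127, −0.0478 and 0.1. The median was 0.0039 without array 2, 0.0124 without array 4 and 0.00321 with the Y-linked covariate. Casp1, the inflammatory caspase, was higher on 3 of 4 arrays (0.26, SE 0.116; 0.13 without array 2) and not well above background in 2 controls. Bcl2l1 was the brightest gene of the list. Of 20 immediate early genes 9 were higher and 11 lower, with a median of −0.014 (0.00841, −0.0699, 0.0187 and 0.016 without arrays 1 to 4). Dusp1 alone had an unadjusted p below 0.05 (−0.19, SE 0.0745, and −0.115 without array 1), Fos differed by −0.17 (SE 0.139) and Jund was the brightest.

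Progenitor and cell cycle genes were mostly higher in cKO, least so on array 1. Of 27 genes, 25 were higher and 2 lower, with a median of 0.136 and array medians of 0.0205, 0.18, 0.22 and 0.178, and 10 were higher on 4 of 4 arrays. None passed the test, and 6 were higher with an unadjusted p below 0.05 (Top2a, Ccnb1, Foxn4, Mki67, Pbk and Aurkb), of which Aurkb was not well above background in any retina. Over all probes, 48.1% were higher, and 2.25% higher at that p. Without array 1 the list's median was 0.218. Mki67, a marker of cycling cells, measured 8.47, 8.78, 8.60 and 8.45 in the controls and 9.11, 8.92, 9.15 and 8.76 in the cKO retinas with its brighter probe (0.43, SE 0.148). The groups overlapped slightly there, while a further Mki67 probe had no overlap (0.48, SE 0.151). Foxn4, a factor of progenitors for amacrine and horizontal cells, measured 6.79, 6.78, 7.24 and 6.87 in the controls and 6.83, 7.38, 7.79 and 7.65 in the cKO retinas (0.38, SE 0.136). Ccnd1, the cyclin of retinal progenitors and the brightest of the list, differed by 0.11 (SE 0.109). At P0, P3 and P6 the median of the list was −0.00564, −0.00637 and 0.0697.

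**Figure D4:**
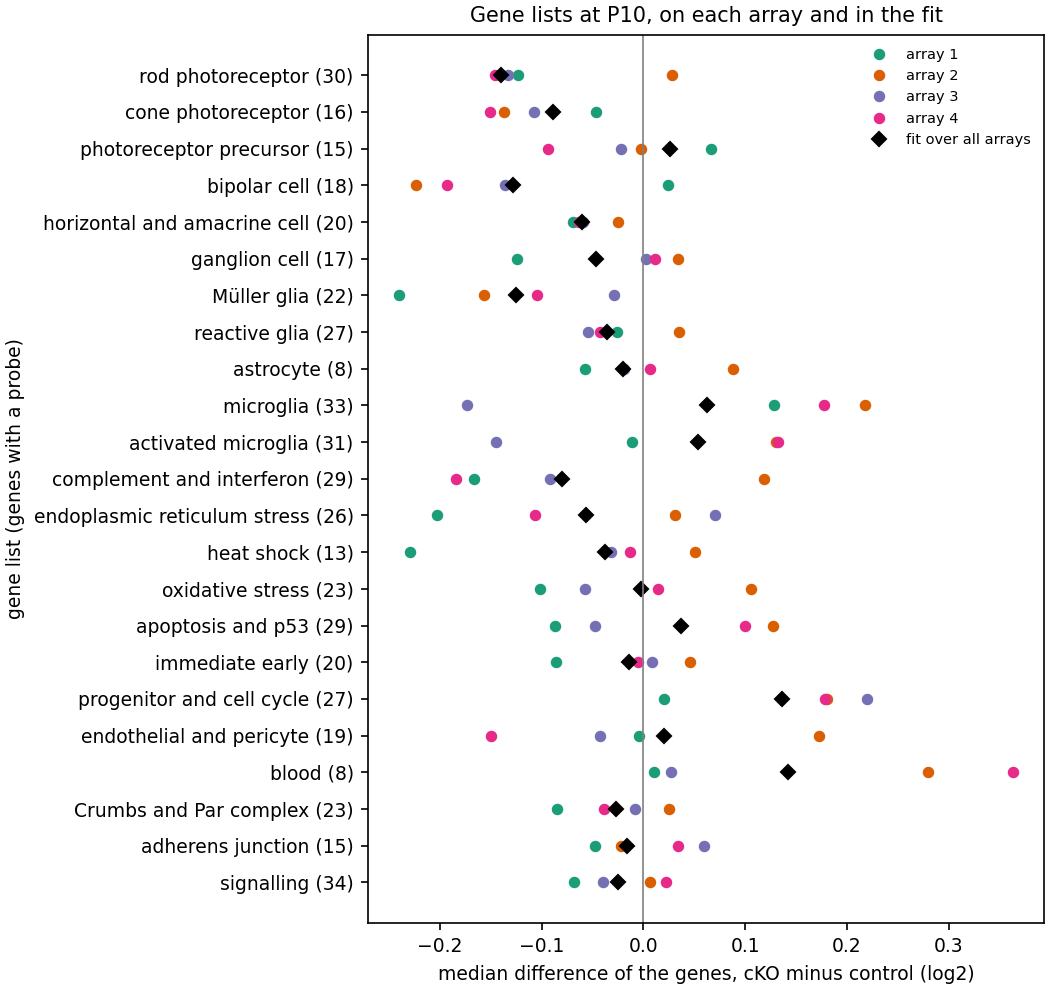
Median difference (log2, cKO minus control) of 23 gene lists at P10 on each array (circles) and in the fit over all arrays (diamonds), with the number of genes that have a probe. The Müller, cone and horizontal and amacrine lists lie below 0 and the progenitor and erythroid lists above 0 on all 4 arrays, and the microglial list lies below 0 on array 3 only. The pigment epithelium, lens and sex-linked lists, whose range is wider, are not drawn.

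Probes were next sorted by their change from P0 to P6 in the 20 retinas of those ages, a sorting chosen after the P10 values had been seen. Of the 25125 probes well above background at P10, 349 rose by over 2 on the log2 scale from P0 to P6, and 69.1% of them were lower in cKO at P10, with a median of −0.0645, against 53.5% lower in the whole set. Of the 1212 that rose by over 1 and up to 2, 69.8% were lower, with a median of −0.0591, and 124 were lower and 8 higher at an unadjusted p below 0.05, where the whole set had 2.98% lower and 1.74% higher. Of the 198 that fell by over 2, 70.7% were higher in cKO, with a median of 0.0482. The 744 that fell by over 1 and up to 2 were near even, with 51.2% higher, a median of 0.00342, and 15 higher and 15 lower at an unadjusted p below 0.05. The 22622 probes that moved by up to 1 had a median of −0.00529, with 52.7% lower. On arrays 3 and 4 the medians ran from 0.0684 and 0.13 for the probes that fell most to −0.0754 and −0.0887 for those that rose most. On array 1 the median was below 0 in each of the 5 classes, and on array 2 above 0 in each.

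**Figure D5:**
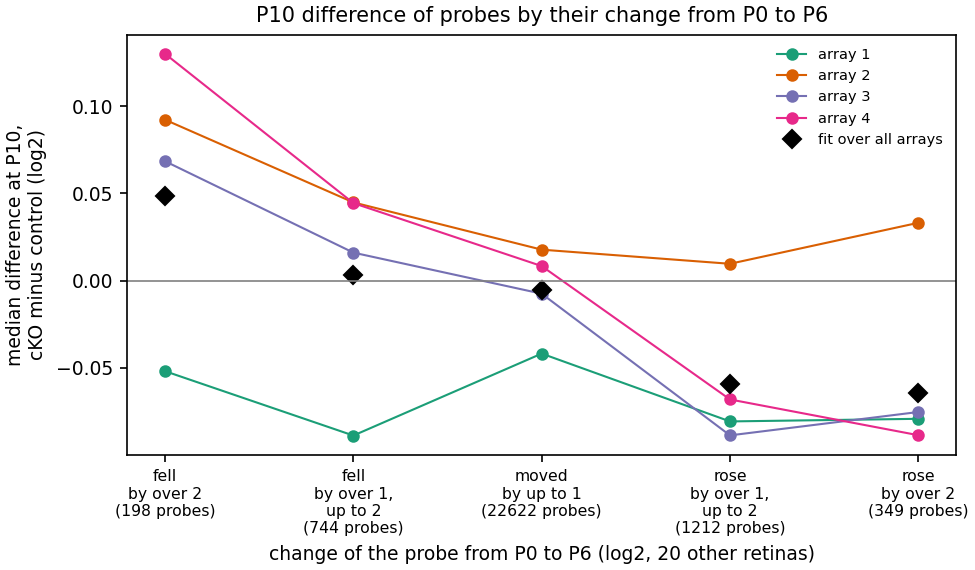
Median difference at P10 (log2, cKO minus control) of probes in 5 classes of their log2 change from P0 to P6, on each array (circles joined by lines) and in the fit (diamonds). In the fit it goes from 0.0482 for probes that fell by over 2 to −0.0645 for probes that rose by over 2, and array 1 stays below 0 throughout.

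Polarity, junction and signalling genes differed little. Of 23 genes of the Crumbs and Par complexes 14 were lower and 9 higher, with a median of −0.0268 (0.0171 after loess, −0.00844, −0.0177 and −0.00367 without arrays 1, 2 and 4), and Inadl, which encodes PATJ, was lower on 4 of 4 arrays (−0.21, SE 0.0892). The brightest was Cdc42. Of 15 adherens junction genes 11 were lower, with a median of −0.0163 (−0.0276 without array 1, −0.0432 without array 3) and none with an unadjusted p below 0.05, and the brightest was Cdh2. Of 34 signalling genes 21 were lower, with a median of −0.0253 (−0.00411 without array 1). Cyr61, a Hippo pathway target, was lower on 4 of 4 arrays (−0.21, SE 0.0774, and −0.101 without array 1) and Rps6 was the brightest. The Notch target Hey1 measured 11.03, 11.31, 11.53 and 11.39 in the controls and 10.95, 11.18, 11.32 and 11.23 in the cKO retinas, lower on each array with overlap (−0.10, SE 0.0652). Of 19 vessel genes 12 were higher and 7 lower, with a median of 0.0205 (0.0659, −0.0522, 0.0325 and 0.0449 without arrays 1 to 4), none with an unadjusted p below 0.05, and the brightest was Kdr.

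Across all named probes, 176 were well above background on all arrays of the brighter group, went one way on 4 of 4 arrays and had an unadjusted p below 0.01, and 40 of them were higher and 136 lower in cKO. The 10 lowest were Kcnj14, Drd4, Usp18, Slc22a8, Trpm3, Aqp4, Ifit3, Gng13, Pcolce2 and Oasl2. Kcnj14, a potassium channel, measured 10.83, 10.30, 10.52 and 10.30 in the controls and 10.04, 10.29, 10.02 and 9.74 in the cKO retinas (−0.60, SE 0.146). The groups did not overlap, but on array 2 the retinas were nearly equal. Drd4, the dopamine receptor of photoreceptors, measured 14.81, 13.85, 14.61 and 14.21 in the controls and 14.50, 13.62, 13.45 and 13.51 in the cKO retinas (−0.59, SE 0.147). Slc22a8, an organic anion transporter, had no overlap (−0.57, SE 0.147), nor did Pcolce2 (−0.43, SE 0.129). Trpm3 gave −0.50 (SE 0.155) with its brightest probe and 0.07 and 0.04 with others. The 10 highest were Gm5115, Gm4638, 2010015L04Rik, Mki67 with 2 probes, Gm3070, Pbk, 4930406D14Rik, Apex2 and 2610028H24Rik. Of these, Gm5115 (0.73, SE 0.216) and Apex2 (0.43, SE 0.137) were highest in cKO retina 1, at 8.11 and 9.24 against up to 7.25 and 8.28 in the other cKO retinas, and without array 1 Apex2 was at 0.175.

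Probes near Crb2 were read at P10 as a look at the targeted chromosome, with the choice made in the 30 retinas of P0 to P6. Of 664 probes within 20 Mb, 24 (3.61%) had an unadjusted p below 0.01 there, against 469 probes (1.21%) elsewhere. At P10, 21 of the 24 (87.5%) had the same sign, and so had 339 of the 469 (72.3%). The dye effect is shared by all ages in this fit, and array 1 shares its slide with P6. On each array alone the same sign was found for 20, 13, 12 and 16 of the 24 and for 376, 185, 244 and 235 of the 469, so that the share was highest on array 1 in both sets. Lypd6b was lower on 4 of 4 arrays at P10 (−0.39, SE 0.083, against −0.31 at P0 to P6) and both Trub2 probes were higher on 4 of 4. Gm3058, which had the lowest p of the earlier ages at −0.51, measured 6.96, 7.07, 6.94 and 7.33 in the P10 controls and 6.90, 6.94, 7.03 and 7.32 in the P10 cKO retinas (−0.02, SE 0.0866). The change between the ages did not pass the test (0.49, adjusted p = 0.733 in limma). Cercam was at −0.10 (SE 0.0943) at P10, at −0.00737 without array 1 and −0.16 without array 3, and at −0.44 before.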

How the data were processed

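The scanner intensities of spots and local background were, per the file headers, quantified by the authors with Agilent Feature Extraction, and each array carried 2 retinas. The deposited log2 values were made by the authors with limma, by normexp background correction and quantile normalization of the separate channels, with array 20 left out. Files of the authors' own comparisons (fold changes, ratios and p-values) were not used.

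Here the intensities of 19 arrays were background corrected by normexp (offset 0, since the methods state none) and quantile normalized over channels in limma 3.58.1 under R 4.3.3. Of 43020 non-control features per array, 7 saturated and 151 non-uniform ones were left out, and the spots of a probe were averaged, which gave 39283 probes. The fit held the 19 arrays as fixed blocks, dye, and the cKO difference at each age, with 14 residual degrees of freedom, moderated p and the Benjamini-Hochberg adjustment over all probes, with a threshold of 0.05. The 2 retinas of a P10 array deviated together from their groups (r = 0.507, 0.615, 0.606 and 0.808), so arrays were kept as blocks. Between arrays r was at most −0.0354, but deviations from a group mean sum to 0, so that value is no independent baseline. The code was tested on simulated data.

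A gene with several probes is given by its brightest unless said otherwise. Named are list members with an unadjusted p below 0.05, the brightest and the first listed members, Crb2, Crb1, Spp1, Gm3058, Cercam, Hey1, Gfap, Arr3, Glul, Sox9, Ptprc, Itgam, Aif1 and the sex-linked genes, and the 10 highest and lowest probes that met the rule stated in the text. Nrl, P2ry12, Hes5, Cabp5, Lypd6b, Trub2 and the probes that passed only in other settings were named after their values had been seen. Some genes that this rule names are not reported here. Lists and members were chosen with earlier results of these data known. The lists are rod, cone, photoreceptor precursor, bipolar, horizontal and amacrine, ganglion, Müller, reactive glia, astrocyte, microglia, activated microglia, complement and interferon, endoplasmic reticulum stress, heat shock, oxidative stress, apoptosis and p53, immediate early, progenitor and cell cycle, endothelial and pericyte, pigment epithelium, lens, blood, Crumbs and Par, adherens junction, signalling and sex-linked, and 527 of their 534 genes have a probe. They are described by counts and medians without a test. Gene names and positions (mm9) are those of the files, and the accession of 25966 probes was in the reference table.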

Additional observations from a re-analysis of the deposited data

Results flagged for a closer look

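In 12 of 158 groups of 4 values of a single gene, and in 1 of 26 lists over the 4 arrays, 1 value stood apart from the other 3 by the ratio of its gap to the range, which chance alone gives in about 1 of 20 groups. In control retina 3 these were Rpe65 at 7.451 (others 10.27 to 10.77), Rdh5 at 9.74 (11.54 to 11.84), Lrat at 5.894 (8.011 to 8.102) and Stra6 at 8.758 (9.595 to 9.718), all of the pigment epithelium and low, and Aif1, high at 10.17 (9.56 to 9.646). In cKO retina 1, Dkk3 at 14.94 (15.32 to 15.38) and Prdx6 at 13.67 (14.12 to 14.16) were low, while Drd4 at 14.5 (13.45 to 13.62) and 2010015L04Rik at 16.34 (15.69 to 15.78) were high. In control retina 4, Clu was high at 15.44 (15.17 to 15.22). The brighter Crb1 probe read −0.1097 in both retinas of array 4, against 9.281 to 9.7 in the other controls and 9.383 to 9.471 in the other cKO retinas. The rod list had a median of 0.028 on array 2 and of −0.146 to −0.123 on the others. All values were kept in the fit.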

How the results depend on the processing

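Of 26 lists, 17 kept the sign of their median in each other setting, as did 72 of 79 single genes in the settings in which they had a value, and 9 of these genes passed the threshold in 1 or more settings. In place of 0 probes, 1 passed without the replicate block, with or without dye (Spp1), 4 with the block as a random effect, 1 with only the 4 P10 arrays paired (Xist), 2 with a normexp offset of 50 (Aqp4 and Abca8a) and 1 with the deposited log2 values, which cannot be paired (Spp1). For P10 against P0 to P6, 1 probe passed (Spp1) without the block and dye, with the random block, and with the deposited values. Leaving out 1 array gave 0 to 21 probes at P10 and 0 to 14 against P0 to P6, both highest without array 3. The horizontal and amacrine median was −0.0278 without dye, whether paired or not, −0.0284 with the deposited values, and −0.0815 to −0.0432 when 1 array was left out. The immediate early median was −0.0699 to 0.0187 when 1 array was left out. With the Y-linked covariate the rod median was −0.233 and the sex-linked −0.0227. With the processed signals the reactive glia median was −0.0984 and the sex-linked −1.54, and the latter was −1.55 among probes well above background. The cause was not tested. The settings of the contrast with P0 to P6, the sign near Crb2 on single arrays and the sorting by change from P0 to P6 were chosen after results had been seen.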

Other observations

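The groups rest on the sample labels, and the study's list of RNA samples gives the opposite genotype for each P10 retina. The 4 arrays include 1 with the other dye orientation on another slide. Sex moved with genotype on 3 of the 4 arrays, and pigment epithelium, lens and blood varied between retinas. Array signal gives relative RNA levels of whole retinas, not of cells.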
